A study of Mus musculus with 68 samples.

Results

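Cadherins are the adhesion proteins that hold the cells of the developing cerebral wall together. The genes described here are those whose symbol in the array's annotation is Cdh followed by a digit or begins with Pcdh, with all of their probe sets. The rule gave 70 of the 19324 genes in the annotation and 107 probe sets, of which 6 are listed for several clustered protocadherins at once. Of the 70 genes, 56 had a probe set of their own and 14 were listed only through those 6 shared probe sets. The study asked how the gene expression of cortical progenitors changes with developmental time, and each measurement came from 1 hand-picked cell of a CD1 mouse whose amplified cDNA was put on 1 Affymetrix array. There were 30 cells from the dorso-lateral cerebral wall at E11 and 28 from fragments of the ventricular and subventricular zones (VZ/SVZ) of the same region at E16. By the paper's methods, E11, E12 and E16 cells were chosen for arrays by qPCR of marker genes from a larger set. Shares of cells therefore describe that chosen set and not the tissue. A further 3 apical progenitors (APs) came from E12 and 3 APs from neurospheres grown for 3 days from E11 cells with FGF2 and EGF. Another 4 APs came from the E14 wall, 3 days after pCAG-NICD, pEF-p18 and an EGFP plasmid were electroporated together at E11. These were picked as EGFP-positive cells. NICD is the active intracellular domain of Notch1 and p18 an inhibitor of cyclin-dependent kinases, so these 4 cells (NICD/p18 APs) carried a Notch signal and a block of the cell cycle at the same time, and the effects of the plasmids cannot be told apart from each other or from stage. All cells other than those 4 were unmodified, and no control electroporation was analysed here.

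Classical cadherins join neighbouring cells by binding their own kind across the cell border, and their tails are tied to actin through catenins. N-cadherin (Cdh2) does this at the apical junctions of the ventricular surface, where the end-feet of APs meet. Protocadherins have a similar outer part but different tails; the delta protocadherins are scattered single genes with patterns that differ between brain regions, while the alpha, beta and gamma protocadherins stand in clusters and are used in different combinations by single neurons.

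The labels gave no cell type for the E11 and E16 cells, so these were grouped on fixed markers of APs, intermediate progenitors (IPs, the basal daughter cells that divide to make neurons) and neurons, none of them a cadherin. The 3 clusters at E11 held 24 AP-like, 3 IP-like and 3 neuron-like cells, and those at E16 held 17, 8 and 3. Among the 24 was E11 replicate 3, a cell of low quality that the paper used only for the clustering in its first figure. It was kept here. AP-like cells had 7 or more of the 16 AP markers over the threshold at E11 and 10 or more at E16. The E16 IP-like cells had a median of 9 AP markers beside 8 of the 11 IP markers, so that cluster was not free of AP markers. Markers of other cells of the embryonic head were rare. Of the Cajal-Retzius, vessel, blood, microglia and mesenchyme markers none was over the threshold in more than 4 of the 68 cells, Cdh5, the cadherin of vessel walls, was over it in none, and no interneuron or choroid plexus marker passed it in any cell. The few cells were not evenly spread. Cajal-Retzius markers were over in 2 of the 3 E11 neuron-like cells, with 3 of them in 1 cell. In 1 E11 AP-like cell 3 blood markers were over. Before normalization each of the 10 arrays of the small groups had a 2%-trimmed mean signal of 500.0, while the median of this mean was 177 over E11 arrays and 145 over E16 arrays, so scaling and condition cannot be told apart for the small groups.

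Each cell held spike RNAs, and the threshold used throughout, called the 20-copy signal, was the median signal of the spike added at 20 copies per cell, 842 after quantile normalization. A gene below it was at a low level or not measured, which these arrays do not separate. Each array was 1 cell and no embryo or litter was named, so a group counted as 1 sample and no significance test was made. Shares of cells are given with exact (Clopper-Pearson) 95% intervals where a result rests on them, and these cover counting error only; SDs are between cells of a group. A gene was called higher or lower between groups when the share of cells over the 20-copy signal differed by 25 percentage points or more, or by 50 or more where a group had only 3 or 4 cells.

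Upstream sequence is shown for the 3 members that were called between E11 and E16, 2 of them higher and 1 lower. It is the 250 bases before the start of each gene in RefSeq (mouse build GRCm38.p6), 5′ to 3′ along the gene. Only 20 of the 56 members with their own probe set were in the promoter table, among them 4 of the 7 genes described one by one. Pcdh8 lies at chr14:79771313-79771562 on the minus strand, Cdh10 at chr15:18820079-18820328 on the plus strand and Pcdh19 at chrX:133688994-133689243 on the minus strand. Capitals mark matches on either strand to TATAAA, to CANNTG (the E-box, bound by basic helix-loop-helix factors, the class that includes the neurogenins), to CACNAG (the N-box form bound by Hes factors) or to TGGGAA (the core bound by the Notch effector Rbpj).
Pcdh8: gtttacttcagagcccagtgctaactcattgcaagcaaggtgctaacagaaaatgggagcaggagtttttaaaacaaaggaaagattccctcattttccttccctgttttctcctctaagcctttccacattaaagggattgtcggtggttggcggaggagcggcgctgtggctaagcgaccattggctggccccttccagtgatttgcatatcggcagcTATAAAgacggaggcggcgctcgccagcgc
Cdh10: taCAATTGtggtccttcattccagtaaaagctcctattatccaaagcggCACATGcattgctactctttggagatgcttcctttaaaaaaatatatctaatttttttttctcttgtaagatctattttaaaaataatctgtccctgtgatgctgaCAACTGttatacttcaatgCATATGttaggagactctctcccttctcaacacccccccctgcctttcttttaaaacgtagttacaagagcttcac
Pcdh19: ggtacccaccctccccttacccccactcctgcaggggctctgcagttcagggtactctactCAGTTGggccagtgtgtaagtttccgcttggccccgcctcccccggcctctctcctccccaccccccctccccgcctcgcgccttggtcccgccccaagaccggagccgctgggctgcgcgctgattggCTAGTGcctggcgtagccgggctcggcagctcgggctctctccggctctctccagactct
The Pcdh8 window held TATAAA from 30 to 25 bases before the start, a match found in 12.4% of the 32851 promoters of the table, and no CANNTG, which 66.2% of promoters held. The Cdh10 window held 4 CANNTG matches and had 36.8% G and C, below the median of 52.4% over all promoters. The Pcdh19 window had 69.2% G and C, with 1 CANNTG and 1 CACNAG match, the last found in 36.7% of promoters. None of the 3 held TGGGAA, which 21.6% of promoters held. A match of these short, partly overlapping patterns is a description of the letters and not a binding site.

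Most members were not over the 20-copy signal in any cell. Of the 56 genes with their own probe set, 22 were over it in at least 1 cell and 34 in none, and of the 107 probe sets 70 were never over it. Over the whole array 20721 of 45101 probe sets were over it in at least 1 cell, beside 37 of the 107 here. By a probe set of their own 10789 of the 19324 annotated genes were, beside 22 of the 70. Type I classical cadherins had 3 of 5 genes over in some cell (Cdh1, Cdh2 and Cdh4), and type II classical cadherins had 6 of 11. The delta protocadherins had 7 of 9, the clustered protocadherins 5 of 23, the other protocadherins 1 of 3 and the remaining cadherins, such as the membrane-anchored Cdh13 and the hair-bundle gene Cdh23, 0 of 5. Only 7 genes reached the 20-copy signal in 7 or more cells, namely Cdh2 (58 of 68), Cdh4 (38), Pcdh19 (23), Pcdh8 (20), Cdh11 (12), Cdh6 (10) and Cdh10 (7). These counts also reflect how well each probe set works, so they do not rank the genes by level.

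**Figure D1:**
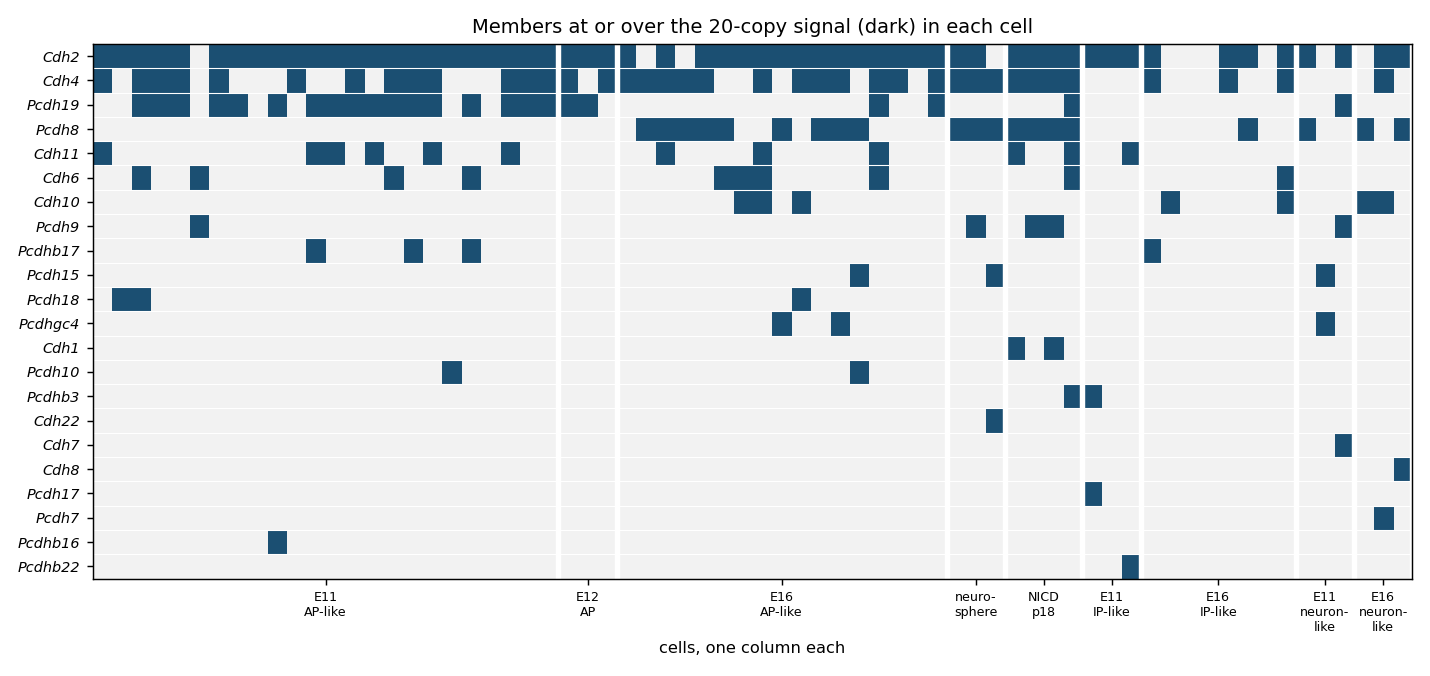
Each column is 1 of the 68 cells, ordered by group, and each row 1 of the 22 members with a probe set over the 20-copy signal in some cell; dark cells are at or over it. Cdh2 was over in nearly all columns, Pcdh19 mostly in the E11 AP-like and E12 cells, and Pcdh8 in the E16 AP-like, neurosphere and NICD/p18 cells.

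Between E11 and E16, 2 of the 22 members were called higher at E16 (Pcdh8 and Cdh10, 9.09%, against 3.83% of all 10789 genes tested). Cdh10 was over in E16 cells alone, so it was among the 22 only through that stage and could only be called higher there. In the other direction 1 member was called lower (Pcdh19, 4.55%, against 3.5% of all genes). The all-gene background depended on scaling: as deposited, 2.23% of genes were higher and 5.89% lower, and scaled to the 1000-copy spike 1.66% and 8.77%. Shares were higher at E16 in 9 members, lower in 11 and equal in 2. The median difference of mean log2 signal over the members was 0.08, beside −0.05 over all genes.

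Among AP-like cells alone, 1 of 22 members was higher at E16 (Pcdh8, against a background of 5.23%) and 1 was lower (Pcdh19, against 5.77%). By the other measure, a difference of 2 or more in mean log2 signal, 4 members were higher (Pcdh8, Cdh4, Cdh6 and Cdh10, against 5.85%) and 1 lower (Pcdh19, against 6.93%). The members' median difference was 0.23 and that of all genes −0.08. As deposited, 3.00% of all genes were higher and 10.5% lower among AP-like cells, and scaled to the 1000-copy spike 2.38% and 14.2%. The median trimmed mean of the deposited arrays was 192 in E11 and 121 in E16 AP-like cells, and its part in these shares was not tested.

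**Figure D2:**
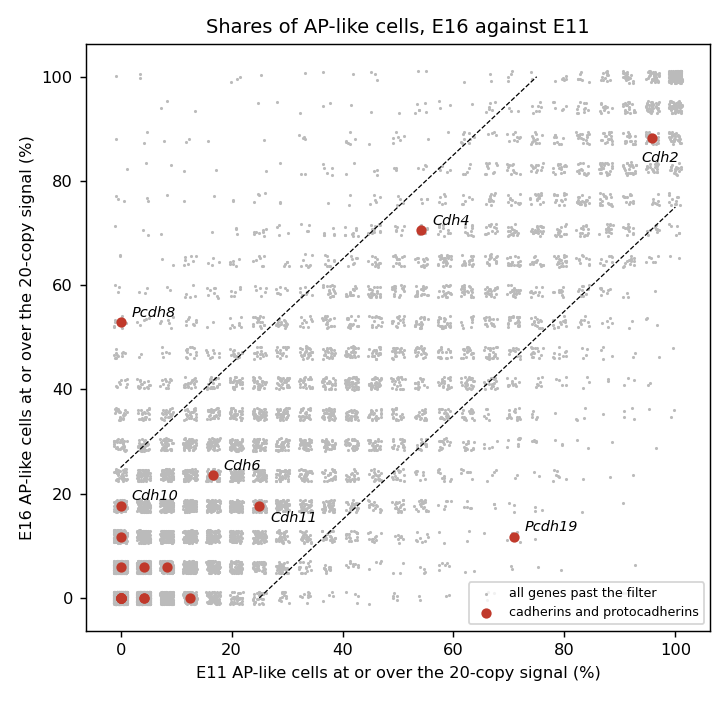
Each red point is a member and each grey point another gene past the low-signal filter (grey points are spread by up to 1.2 points so that they do not hide each other); the axes give the percentage of E11 and of E16 AP-like cells over the 20-copy signal, and the dashed lines mark a difference of 25 points. Pcdh8, at 0 and 52.9%, and Pcdh19, at 70.8 and 11.8%, lie outside the lines, and Cdh2 lies at the upper right with 95.8 and 88.2%.

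Pcdh19, an X-linked delta protocadherin that in humans underlies an epilepsy of girls, was over the threshold in most E11 AP-like cells and in few E16 cells. In E11 AP-like cells its signal ran from 14.8 through a median of 1110 to 4247, and 17 of 24 cells were over the 20-copy signal (70.8%, interval 48.9 to 87.4%). In E16 AP-like cells it ran from 7.03 through 26.5 to 1285, with 2 of 17 over (11.8%, 1.46 to 36.4%). The ranges overlapped, since 7 E11 AP-like cells were under the threshold and 2 E16 AP-like cells over it. The mean log2 signal was 9.84 (SD 1.73, n = 24) at E11 and 5.73 (SD 2.51, n = 17) at E16, a difference of −4.11. At 2 times the threshold the difference in shares was −25 points among AP-like cells, at the limit of the rule, and −20 over all cells, where the call was lost.

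Among the differentiating cells of E11, Pcdh19 was low in most. Its signals in the 3 E11 IP-like cells were 27.2, 47.7 and 23.1, all far below most E11 AP-like cells. In the 3 E11 neuron-like cells they were 14.6, 8.92 and 997. No E16 IP-like or neuron-like cell was over the threshold, with highest signals of 183.5 and 68.4. The 3 E12 APs had 1299, 2216 and 248, so 2 of 3 were over, as in E11 AP-like cells. A second Pcdh19 probe set was over in 22 cells beside 23 for the first, with 14 cells over by both, and by it 14 of 24 E11 AP-like cells and 0 of 17 E16 AP-like cells were over. The remaining probe set was over in 2 cells, both E11 AP-like.

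Pcdh8, a delta protocadherin also known as arcadlin and PAPC, showed the opposite order of stages. No E11 AP-like cell was over the 20-copy signal (0 of 24, interval up to 14.2%), and the highest of their signals was 12.3, with a median of 4.25. In E16 AP-like cells the signal ran from 0.81 through 1243 to 4649, and 9 of 17 cells were over (52.9%, 27.8 to 77.0%). The E16 AP-like cells were uneven, as 3 of them fell within the E11 range, 1 was at 14.8 and 4 lay between 273 and 702, under the threshold. The mean log2 signal was 1.59 (SD 1.43) at E11 and 8.76 (SD 4.06) at E16, a difference of 7.17, which compares mostly unmeasured with measured cells and is not a fold.

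In other E11 and E16 cells Pcdh8 was mixed. The only E11 cell over the threshold was neuron-like, with 2274, while the other 2 neuron-like cells had 22.2 and 0.72. In the 8 E16 IP-like cells it ran from 1.28 through 8.69 to 2517, with 1 over, and in the 3 E16 neuron-like cells it was 1062, 8.94 and 1412. The 2 Pcdh8 probe sets lay on the same side of the threshold in 66 of 68 cells, closer than the pairs of any other member described here.

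**Figure D3:**
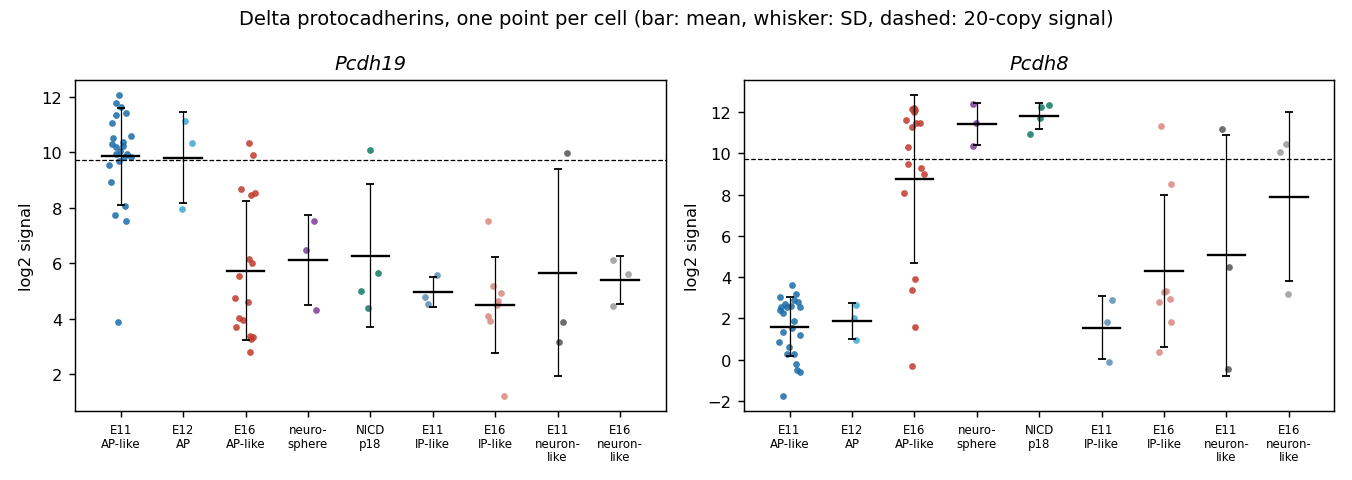
Log2 signal of Pcdh19 (left) and Pcdh8 (right) in each cell, by cell group, with the mean (bar), the SD between cells (whisker) and the 20-copy signal (dashed line at 9.72). For Pcdh19 the E11 AP-like and E12 points gather around the line and most others lie below it; for Pcdh8 every E11 AP-like and E12 point lies far below it and all 7 neurosphere and NICD/p18 points above.

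Few cells had both genes. Over all 68 cells 22 were over for Pcdh19 alone, 19 for Pcdh8 alone, 26 for neither and 1 for both. That cell was 1 of the 4 NICD/p18 APs, and no cell of E11, E12 or E16 was over for both. Among E16 AP-like cells, where both genes occurred, 2 were over for Pcdh19 only, 9 for Pcdh8 only and 6 for neither. With so few E16 cells over for Pcdh19 an absence of double cells within a stage says little. Cells whose names share a number may come from 1 collection, which the labels do not say; Pcdh19 was over in cells of 7 of 11 such numbers at E11 and 2 of 10 at E16, and Pcdh8 in cells of 1 of 11 and 6 of 10, so neither pattern rested on 1 number.

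Cdh2, N-cadherin, was over the 20-copy signal at both stages. In E11 AP-like cells its signal ran from 8.31 through 2614 to 5735, with 23 of 24 over, and in E16 AP-like cells from 501 through 2957 to 6991, with 15 of 17 over. The ranges lay on each other apart from 1 low E11 cell, and the mean log2 signals of 10.96 (SD 1.83) and 11.44 (SD 1.12) differed by less than the SD of either. Over all cells of a stage the shares were 28 of 30 and 21 of 28 (93.3% and 75%, intervals 77.9 to 99.2% and 55.1 to 89.3%). A second Cdh2 probe set was over in 44 of the 68 cells beside 58 for the first, on the same side of the threshold in only 46 cells, and by it 16 of 24 E11 and 12 of 17 E16 AP-like cells were over.

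Cdh4, R-cadherin, the type I cadherin closest to Cdh2 and able to bind it, was over in fewer cells. In E11 AP-like cells its signal ran from 4.79 through 961 to 3241 and 13 of 24 were over (54.2%), and in E16 AP-like cells from 44.2 through 2368 to 6260 and 12 of 17 were over (70.6%). The shares were under 25 points apart (intervals 32.8 to 74.4% and 44.0 to 89.7%). With deposited signals Cdh4 was called higher in E16 AP-like cells (backgrounds 3.00% higher and 10.5% lower). The mean log2 signal after quantile normalization was 7.99 (SD 3.12) at E11 and 10.54 (SD 1.94) at E16. All 13 E11 cells over for Cdh4 were also over for Cdh2, and in the whole series 35 of the 38 Cdh4 cells were. The 2 other Cdh4 probe sets were over in 2 cells and in none, so the Cdh4 values rest on 1 probe set.

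The IP-like cells had fewer members over the 20-copy signal than AP-like cells at E16, with a median of 1.5 (range 0 to 4) in 8 cells and 3 (1 to 5) in 17. At that stage 0 of 22 members were called higher in IP-like cells, against a background of 7.9%, and 3 were lower (Cdh2, Cdh4 and Pcdh8, 13.6%, against 5.88%). The same 3 were lower with deposited or spike-scaled signals, where the backgrounds were 7.66% higher and 4.91% lower, or 9.11% and 4%. Cdh2 ran from 14.5 through 667 to 1175 in the E16 IP-like cells with 4 of 8 over, and Cdh4 from 6.89 through 19.95 to 4036 with 3 of 8 over. The highest Cdh2 signal among these IP-like cells was below the median of the E16 AP-like cells.

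At E11, where there were only 3 IP-like cells, Cdh2 was as high in them as in the AP-like cells. Its signals were 2290, 4294 and 2594, and the mean log2 signal was 11.52 (SD 0.48) beside 10.96 in the AP-like cells. Cdh4 was low in all 3, at 24.4, 26.1 and 22.7. By the 50-point rule 2 members were lower (Cdh4 and Pcdh19, against 2.96% of all genes) and 0 higher, against 3.3%; with deposited signals the backgrounds were 4.84% lower and 1.73% higher, and scaled to the spike 4.83% and 2.06%, with the same 2 members. Whether the difference between IP-like and AP-like cells in Cdh2 itself differed between stages was not tested.

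Neuron-like cells numbered 3 at each stage, and 2 of the 3 at E11 had Cajal-Retzius markers over the threshold. At E11 their Cdh4 signals were 121, 12.7 and 20.0, and Cdh4 was called lower than in AP-like cells (background 5.51%), with 0 members higher (background 5.12%). With deposited or spike-scaled signals Pcdh19 was called lower as well, and the backgrounds were 1.89% higher and 8.81% lower, or 2.0% and 9.42%. Their Cdh2 signals were 2975, 1.3 and 1448, so 1 of the 3 cells was at the bottom of the array's range. At E16 no member was called in either direction (backgrounds 4.86% higher and 3.98% lower), although with the signals as deposited Pcdh8 was called lower, over in 0 of 3 neuron-like and 9 of 17 AP-like cells (backgrounds 3.42% and 3.85%); Cdh2 was 604, 1257 and 7074 and Cdh4 was 36.8, 3526 and 21.5. Trimmed means of the deposited arrays were under 100 in 2 of the 3 E11 neuron-like cells, and the part of array brightness was not tested.

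Type II cadherins, which mark subregions and layers of the forebrain, appeared in scattered cells. Cdh10 was over in no E11 cell (0 of 30, interval up to 11.6%), where its highest signal was 56.6, and in 7 of 28 E16 cells (25%, 10.7 to 44.9%), which is exactly at the limit of the rule. These 7 were 3 AP-like, 2 IP-like and 2 neuron-like cells, belonged to 5 of the 10 name numbers of E16, and only 1 of them was also over for Pcdh8. In the E16 AP-like cells the signal ran from 1.27 through 11.4 to 2468. Its 3 other probe sets were over in no cell, so the call rests on 1 probe set. That probe set stood for the gene only because of the E16 cells in which it was over. With no filter another probe set stood for it and the share difference was 0. The call was also lost with the signals as deposited (a difference of 21.4 points), scaled to the 1000-copy spike (14.3 points) and against each cell's own spike signal (17.9 points).

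Cdh11, a type II cadherin also known from bone and mesenchyme, was over in 6 of 24 E11 and 3 of 17 E16 AP-like cells. Its signal ran from 0.63 through 8.05 to 4039 at E11 and from 1.29 through 13.8 to 2186 at E16. Beyond AP-like cells it was over in 1 E11 IP-like cell and 2 NICD/p18 APs. Most cells of either stage were thus near the bottom of the range and a few far above the threshold. Its other probe set was never over.

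Cdh6, used as a marker of parts of the developing cortex and of other regions, was over in 4 of 24 E11 and 4 of 17 E16 AP-like cells. The signal ran from 1.75 through 15.6 to 1360 at E11 and from 15.2 through 107 to 2594 at E16, with mean log2 values of 4.96 (SD 3.16) and 7.19 (SD 2.98). The shares were 16.7% and 23.5% and the ranges overlapped over most of their length. Outside the AP-like cells it was over in 1 E16 IP-like cell and 1 NICD/p18 AP. Its second probe set was over in 1 cell, which was not among those over by the first.

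**Figure D4:**
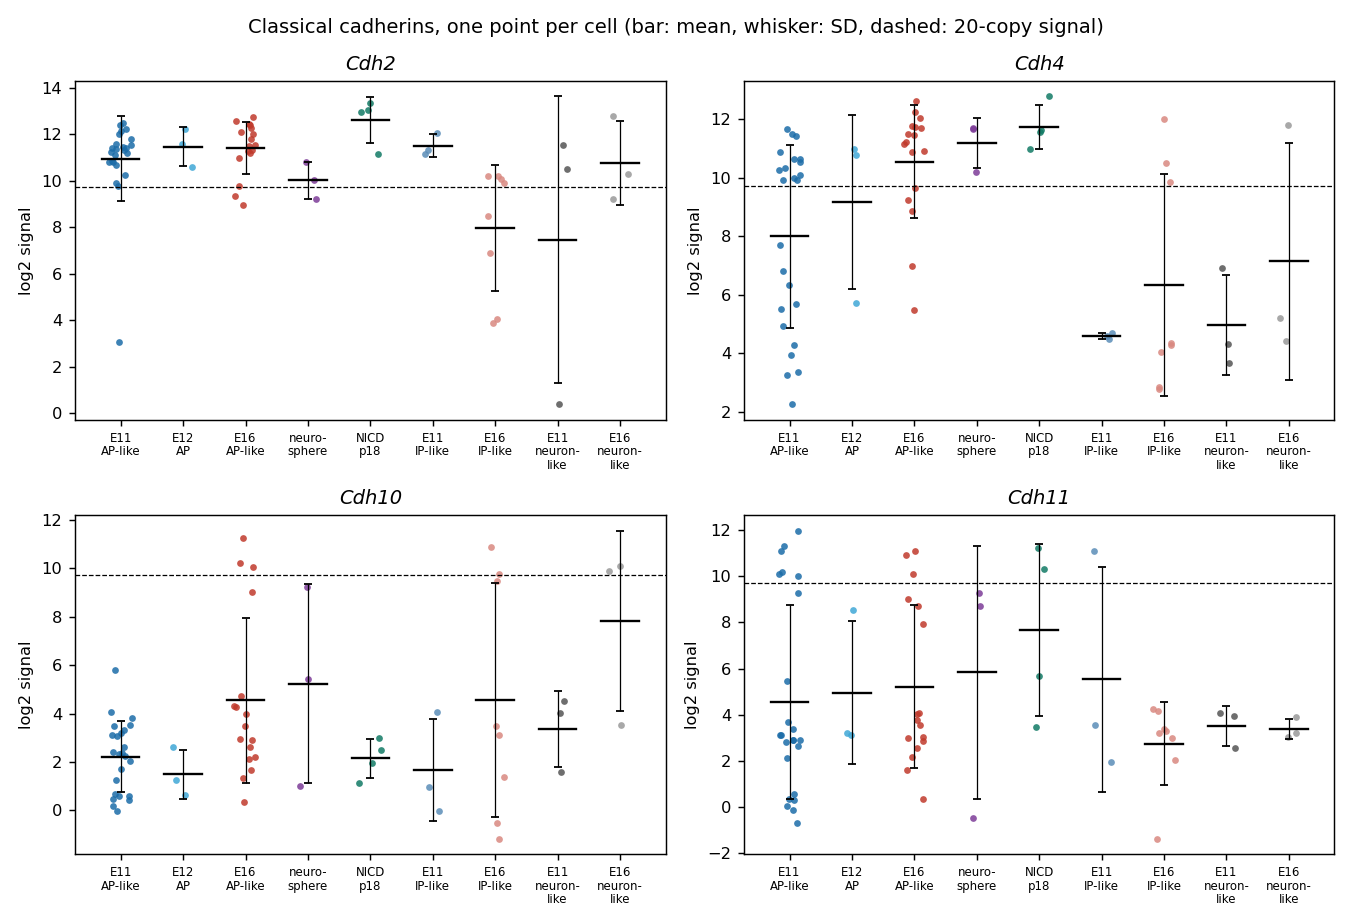
Log2 signal of Cdh2, Cdh4, Cdh10 and Cdh11 in each cell by cell group, with the mean (bar), the SD between cells (whisker) and the 20-copy signal (dashed line at 9.72). Cdh2 points lie above the line in most groups but not in the E16 IP-like cells, where 4 of 8 are below it; Cdh10 and Cdh11 points fall into a low majority and a few cells above the line.

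The other 15 members past the threshold in some cell were rare. Pcdh9, a delta protocadherin, was over in 5 cells, Pcdhb17 in 4, and Pcdh15 (a partner of Cdh23 in hair cells), Pcdh18 and Pcdhgc4 in 3 each; 3 genes were over in 2 cells each and 7 in 1 each. Cdh1, E-cadherin, the type I cadherin of epithelia, was over in 2 cells, both NICD/p18 APs, and in no E11 or E16 cell. For Pcdh10, a delta protocadherin, the probe set with the highest mean was over in 1 E11 and 1 E16 cell, but another was over in 4 E16 AP-like cells, 1 NICD/p18 AP and no E11 cell, so its values depend on the probe set.

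The clustered protocadherins were nearly silent by this measure. Of their 35 probe sets, shared ones included, 8 were over in some cell and none in more than 6. In all, 17 of 68 cells had any over (11 of E11, 5 of E16 and 1 NICD/p18 AP), 3 cells had 2 and none had more. The genes named were Pcdhb3, Pcdhb16, Pcdhb17, Pcdhb22 and Pcdhgc4. Genes of the beta cluster are close copies, and those of the alpha and gamma clusters each share their last exons, so these probe sets may not tell 1 gene of a cluster from another.

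The APs of the small groups were set beside both stages, and because the comparisons share the E11 and E16 cells they are not independent of each other. The stages held IP-like and neuron-like cells as well, so each group was also set against the AP-like cells alone, a comparison added after the first had been seen. In the E12 APs, 1 day after E11, no member was called against E11 (0 higher against 2.55% of all genes, 0 lower against 1.11%). Against E16, Pcdh19 was higher (background 3.36%) and 0 members were lower (background 1.55%). Without replicate 2 the count against E11 was 1, and without replicate 1 or replicate 2 the count against E16 was 0. Against AP-like cells alone, no member was called from E11 (backgrounds 2.48% higher and 1.42% lower), and from E16 Pcdh19 was higher (background 3.36%) and Pcdh8 lower (background 1.9%). Against all cells with deposited signals, 9.85% of all genes were higher and 0.21% lower than in E11. Against E16 the figures were 14.7% and 0.27%, and the member calls were the same. Scaled to the 1000-copy spike the backgrounds were 3.81% and 0.81%, and 8.10% and 0.46%, again with the same calls. Pcdh8 was 4.11, 1.94 and 6.34 in the 3 E12 APs, within the range of the E11 AP-like cells. Their Cdh2 signals were 1547, 4853 and 3105, all over the threshold, and their Cdh4 signals 2026, 53.2 and 1727.

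In the neurosphere APs, E11 cells after 3 days in culture, Pcdh8 was over in all 3 cells, at 5433, 1311 and 2824, each above the highest E11 AP-like signal of 12.3. Pcdh19 was 89.9, 182 and 20.0, over in none. Cdh4 was over in all 3, at 3338, 3230 and 1175, while Cdh2 was 1789, 1058 and 601. Against E11, 2 members were higher (Pcdh8 and Cdh4, background 3.24%) and 1 lower (Pcdh19, background 1.78%). Against E16, Pcdh8 was higher (background 3.11%) and 0 lower (background 1.49%), and leaving out 1 of the 3 cells gave 3 members without replicate 1 and 2 without replicate 2 or 3. Against AP-like cells alone the Cdh4 call was lost after quantile normalization (3 of 3 beside 13 of 24). This left Pcdh8 higher (background 3.2%) and Pcdh19 lower (background 2.2%) than in E11. With deposited or spike-scaled signals Cdh4 and Pcdh8 were both higher and Pcdh19 lower (backgrounds 9.16% or 5.15% higher and 0.70% or 1.55% lower). From E16 AP-like cells no member was called (3 of 3 beside 9 of 17 for Pcdh8, backgrounds 3.08% higher and 1.73% lower). Against all cells with deposited signals the backgrounds were 9.97% higher and 0.40% lower than E11. They were 13.2% and 0.34% against E16, where Cdh11 was called beside Pcdh8. Scaled to the spike they were 5.62% and 0.98%, and 9.17% and 0.34%. Cdh10 reached 607 in 1 neurosphere cell and was 43.2 and 2.03 in the other two, under the threshold in each.

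The NICD/p18 APs had the most members over the 20-copy signal, 4 to 7 per cell with a median of 5, beside 1 to 5 with a median of 3 in E11 cells. Pcdh8 was over in all 4, at 1951, 3396, 5194 and 4779, and Cdh4 in all 4, at 2007, 3029, 6962 and 3174. Cdh2 was 7939, 2289, 8531 and 10519, with 3 of the cells above every E11, E12 and E16 cell. Pcdh19 was 32.1, 50.1, 20.7 and 1069, so 1 cell was over and 3 were low.

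Against E11, 3 members were higher in the NICD/p18 APs (Cdh1, Cdh4 and Pcdh8, 13.6%, against 3.75% of all genes) and 0 lower (background 2.76%). Against E16, 3 were higher (Cdh1, Pcdh8 and Pcdh9, against 2.84%) and 0 lower (background 2.11%). Cdh1 was over in NICD/p18 APs alone, so it was among the members tested only through that group. It could therefore only be called higher there, also against AP-like cells after quantile normalization. Without replicate 4, the cell over for Pcdh19, 5 members were called against E11, and without replicate 3, 2 were. Against AP-like cells alone, Cdh1 and Pcdh8 were higher than at E11 (background 4.37%, 0 lower against 3.9%) and Cdh1 and Pcdh9 higher than at E16 (background 3.23%, 0 lower against 2.79%). The Cdh4 call against E11 and the Pcdh8 call against E16 were thus lost after quantile normalization, with 13 of 24 and 9 of 17 AP-like cells over beside 4 of 4. Against E11 AP-like cells Cdh4 was called with deposited or spike-scaled signals (backgrounds 8.99% or 3.27% higher and 2.27% or 5.35% lower). Against E16 AP-like cells Pcdh8 was called with spike-scaled signals (4.36% higher and 1.73% lower). With deposited signals it was not, and Cdh1, Pcdh9 and Pcdh17 were (11.2% higher and 1.04% lower). With deposited signals the backgrounds against all cells were 8.65% higher and 1.43% lower than E11, and 9.99% and 0.74% than E16, where Pcdh17 was called in addition. Scaled to the spike they were 3.01% and 3.48%, and 3.62% and 1.34%, with the same member calls as first given. Cdh1 was 3033, 1.01, 1763 and 236 in these 4 cells and Pcdh9 was 180, 1807, 3290 and 19.4. The median difference of mean log2 signal over the members was 1.16 against E11 and 1.07 against E16, beside −0.09 and −0.01 over all genes.

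The spike signal itself was higher in these 4 cells than in the other labelled groups. The spike of 20 copies had a median of 3308 (1176 to 4678) in the NICD/p18 APs after normalization, beside 774 in E11, 760 in E16, 929 in E12 and 758 in neurosphere cells. Single cells ran from 28.4 to 3898 at E11, 93.5 to 6636 at E16 and 13.1 to 1662 in neurospheres. The threshold, a median, thus need not stand for 20 copies in every cell. Held against each cell's own spike signal, Pcdh8 and Cdh4 were each over in 2 of the 4 cells and Cdh1 in none, and 1 member was called against E11 and 0 against E16. Among AP-like cells by that measure, Pcdh8 was over in 10 of 17 cells at E16 and 0 of 24 at E11, and Pcdh19 in 2 and 15. Cdh10 was over its own cell's spike in 5 E16 cells rather than 7. In the neurosphere APs Pcdh8 was over its own cell's spike in 2 of 3 and Cdh4 in 3 of 3. The NICD/p18 APs also had a median of 5 (range 0 to 8) of the 12 neuron markers over the 20-copy signal, beside 1 (0 to 3) in E11 AP-like cells, with AP markers at a median of 11.5 of 16. Of the mesenchyme markers Pdgfrb was over in 3 of the 4 cells and Col1a1, Col1a2, Col3a1, Dcn and Lum in none, and of the vessel markers Cldn5 was over in 1. The part of the spike level and of these markers in the members' values was not tested.

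**Figure D5:**
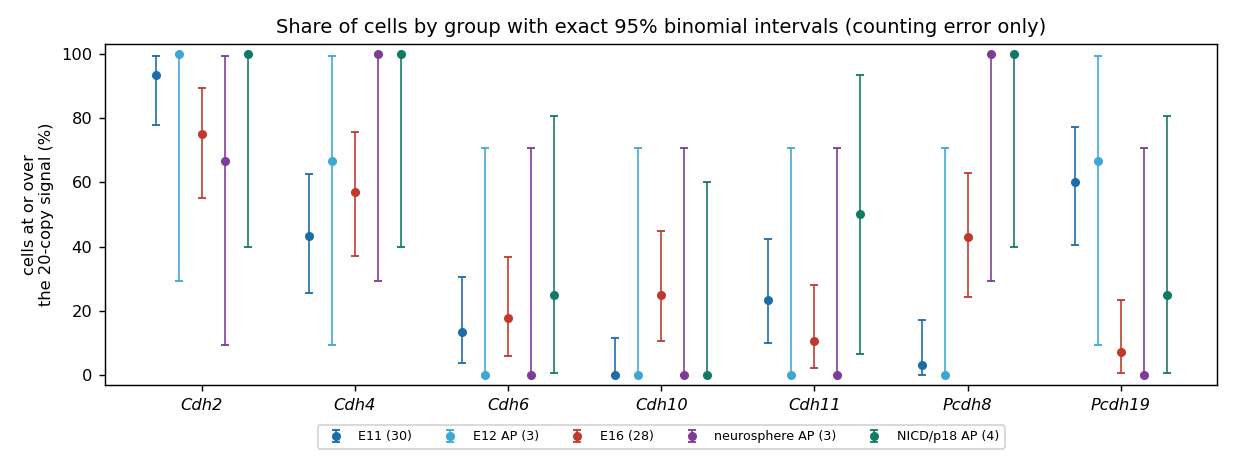
Percentage of cells over the 20-copy signal for the 7 members reached in 7 or more cells, in the 5 labelled groups, with exact 95% binomial intervals that cover counting error only; the legend gives the number of cells. Pcdh8 stands at 3.33% in E11 and 100% in neurosphere and NICD/p18 APs, Pcdh19 at 60% in E11 and 7.14% in E16, and the intervals of the groups of 3 or 4 cells span much of the axis.

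The partners that tie classical cadherins to actin were taken from a list of 35 catenins, junction and actin genes, of which 28 passed the filter. Between E11 and E16, 1 was higher (Lima1, an actin-binding partner of alpha-catenin, over in 3 of 30 and 15 of 28 cells, beside 3.83% of all genes) and 0 lower (beside 3.5%), and the list's median difference was 0.23 beside −0.05 over all genes. Ctnnb1, beta-catenin, was over in every E11 and E16 cell, with mean log2 signals of 13.36 (SD 0.30) and 13.61 (SD 0.16). Ctnna1, alpha-E-catenin, was over in 23 of 30 and 26 of 28 cells and Ctnnd1, p120-catenin, which steadies cadherins at the membrane, in 13 and 11. Among AP-like cells 3 genes were higher at E16 (Vcl, Fyn and Lima1, beside 5.23% of all genes) and 2 lower (Wasf1 and Pard3, beside 5.77%), with a median difference of 0.34 beside −0.08. Vcl, vinculin, which reinforces junctions under tension, was over in 3 of 24 and 8 of 17 AP-like cells, and Pard3, a polarity protein of the apical junction, in 6 and 0.

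Related cadherins outside the naming rule, such as the Fat, Dachsous, Celsr and calsyntenin genes, made a list of 25, of which 12 passed the filter. Celsr1, a large cadherin of planar cell polarity, was the 1 gene higher at E16, over in 13 of 30 and 24 of 28 cells (beside 3.83% of all genes higher), and 0 were lower (beside 3.5%); the median difference was 0.21, beside −0.05 over all genes. Without 1 E11 cell, replicate 3, which the methods call low in quality, 2 genes of the list were called. In AP-like cells Celsr1 (11 of 24 and 15 of 17), Celsr2 (4 and 8) and Clstn1 (9 and 14) were higher, beside 5.23% of all genes, 0 were lower, beside 5.77%, and the median difference was 0.19, beside −0.08. Fat1, a giant cadherin that acts at cell borders, was over in 22 of 24 and 14 of 17 AP-like cells, a difference under the limit of the rule.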

How the data were processed

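The 68 arrays (Affymetrix, 1 cell each) were deposited by the authors as MAS5 intensities on a linear scale, 45101 probe sets per array, from cDNA amplified from the 3′ end of transcripts. They were not quantile normalized. All 68 arrays were quantile normalized together and log2 transformed with no offset (Python 3.11.15, numpy 2.4.6, pandas 2.3.3, scipy 1.17.1; figures, matplotlib 3.10.9). Quantile normalization gives every cell the same number of probe sets over a threshold. Genes were named from the platform annotation (35890 probe sets listed, 34958 with 1 symbol). Among probe sets at or over the 20-copy signal in at least 1 cell, the one with the highest mean stood for its gene. By this filter 10789 genes were kept. E11 and E16 cells were clustered separately by complete linkage on 1 minus correlation and divided into 3; average linkage gave the same 6 classes. No doublet caller was run, since cells were picked singly by capillary. No 2 of the 2278 array pairs held identical values, and the highest correlation was 0.716. The arrays' number limits precision.

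Members were taken one by one where 7 or more cells were over; of the lists, genes called between E11 and E16 were named. The members, lists and rules were chosen with earlier results of these data known. The code was tested on simulated data. Alternatives changed the scaling, threshold, filter, low cells and left-out cells. Promoter sequences were from RefSeq.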

Additional observations from a re-analysis of the deposited data

How the results depend on the processing

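The labels name no animals, so these are limits of description. Pcdh8 was higher and Pcdh19 lower at E16 than at E11 in share of cells with each alternative run. In all, 127 counts of called genes kept within 1.5 times their value and 39 did not. Of the share differences of Pcdh8, Pcdh19 and Cdh10, only that of Cdh10 changed sign, in 1 case. Among AP-like cells it went from 17.6 to 5.88 points at 2 times the threshold and to 0 with no filter. No paired analysis was possible because the labels give no replicate number that groups share. With 2 to 4 cells per group, shares move in steps of 25 points or more. The causes of the shifts below were not tested.

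Of all E16 and E11 cells, 1 member rather than 2 was higher with the signals as deposited, scaled to the 1000-copy spike, at a threshold lower by a factor of 2, with no filter, and against each cell's own spike; 0 rather than 1 was lower at 2 times the threshold and 2 with cells averaged within each name number. The Cdh10 share difference was −3.33 points rather than 25 at the lower threshold, where another probe set stands for the gene, and 7.14 at 2 times the threshold, where that of Pcdh19 was −20 rather than −52.9. Without the 12 arrays of low trimmed mean the Pcdh8 share difference was 40.9 points, close to the 39.5 with all arrays.

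Among AP-like cells 2 members rather than 1 were higher with deposited signals, at either threshold, by name number and with all cells of the stage. The catenin list gave 3 genes with deposited or spike-scaled signals, 2 at either threshold, with E11 and E16 normalized alone or against each cell's own spike, and 7 by name number, rather than 1. The related list gave 2 by name number, and 2 without E11 replicate 3, a cell the methods call low in quality, rather than 1. Without that cell the AP-like share differences were −62.1 points for Pcdh19 and 52.9 for Pcdh8.

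E11 IP-like cells gave 0 members rather than 2 at 2 times the threshold. For E12 against E11 it was 1 rather than 0 at 2 times the threshold, and for E12 against E16 0 rather than 1 there and 2 at the lower threshold. Neurosphere against E16 gave 2 with deposited signals and 0 at either threshold, rather than 1. Against each cell's own spike, a choice made after seeing the data, as was leaving out the low arrays, the NICD/p18 APs gave 1 against E11 and 0 against E16, rather than 3 and 3. Against AP-like cells of E16 alone, also added later, E12 gave 2 rather than 1 and neurospheres 0 rather than 1. Leaving out 1 cell at a time gave 0 to 1 for E12 against E11 (1 without replicate 2), 0 to 1 against E16 (0 without replicate 1 or 2), 3 to 4 and 2 to 3 for neurospheres (3 without replicate 1 against E16), and 2 to 5 and 2 to 3 for NICD/p18 (5 without replicate 4).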
